A study of Mus musculus with 12 samples.

Results

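The genes followed here encode the machinery that tethers, docks and fuses synaptic vesicles. They were chosen by family name (Syt, Stx, SNAP-25 family and Snap91, Vamp, Stxbp, Syn, Sv2, Cplx, Rab3, Rims and Unc13), and 73 of the 32546 genes in the count table belonged to them. By role these were 16 synaptotagmins, 15 syntaxins, 4 SNAP-25 family members, 8 VAMPs, 7 syntaxin-binding proteins, 3 synapsins, 3 SV2 proteins, 4 complexins, 4 Rab3 GTPases, 4 RIMs, 4 Munc13 proteins and Snap91. Syntaxins and VAMPs of the endoplasmic reticulum, Golgi and endosome belong to the families by name, although they act outside the presynaptic terminal.

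At a nerve terminal, synapsins tether vesicles in a reserve, and Rab3 with RIM brings them to the active zone. Munc13, with other priming proteins, then lets syntaxin-1, SNAP-25 and synaptobrevin (VAMP) wind into a SNARE complex, complexin holds that complex, and a synaptotagmin triggers fusion when calcium enters. The mRNAs lie mostly in the cell bodies, so a level in CA1, CA3 or the dentate gyrus (DG) describes what the neurons of that layer make for axons that end elsewhere. Granule cells of the DG send mossy fibres to CA3, CA3 pyramidal cells send Schaffer collaterals to CA1, and CA1 pyramidal cells project out of the hippocampus.

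The RNA came from brains of male ICR mice aged 8 weeks, from coronal sections in which a chosen hippocampal layer was irradiated so that only its photocaged primers became active (photo-isolation chemistry, PIC). Each region (CA1, CA3, DG) was captured under 4 histological conditions, which made 12 libraries of 4 replicates, or 48 replicates in all. Fresh-frozen sections were permeabilized either with 0.1 N HCl for 5 min (HCl) or in Tris-EDTA buffer at 70 °C for 1 h (TE). Sections of brains fixed in 4% paraformaldehyde were either frozen (fixed frozen) or embedded in paraffin (paraffin), and both were permeabilized with TE. The labels give no allele or drug treatment, and by the study's protocol the fresh-frozen sections were themselves post-fixed on the slide. The study describes the 4 replicates as biological, but the labels do not tie a replicate to a mouse, so p-values measure the spread between these replicates. All 4 replicates of a region and condition shared 1 library, so that region and library cannot be told apart within a condition. A captured layer holds every cell in the beam, and fewer cells of a type and less RNA per cell cannot be told apart.

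A replicate held 35932 to 1111804 UMIs (unique molecular identifiers, the bar-coded copies counted in place of reads). Fresh-frozen replicates had 127253 to 1111804 UMIs, fixed frozen ones 52800 to 307145 and paraffin ones 35932 to 223055. Levels after fixation thus rested on fewer UMIs, which can hide small differences. Replicate 4 of HCl CA1 stood apart at 127253 UMIs, against 610016 to 869363 in the others of its group. Without it 20 members in place of 17 were called between CA1 and DG in HCl, and the count between CA1 and CA3 was 18 either way. Levels are given as CPM, the UMIs of a gene per 1000000 UMIs of the replicate. Markers of CA1 (4 genes), CA3 (5 genes) and DG (6 genes) were highest in the libraries of that name in every condition. In paraffin sections the summed CA1 markers ranged from 144 to 367 CPM in CA1 and from 109 to 206 CPM in DG, so that these ranges overlapped. Of these defining markers, the CA3 gene Iyd was at 0 in all CA1 groups and also in paraffin CA3. The series' design text names CA2 where the sample titles name CA3. The 3 CA2 markers summed to 246 to 331 CPM in HCl CA3, 278 to 651 in HCl CA1 and 383 to 645 in HCl DG. In fixed frozen sections they summed to 473.5 to 1009 CPM in CA3, 203 to 384 in CA1 and 1118 to 1524 in DG. A CA2 sum below DG cannot by itself tell CA2 from CA3. Of the CA3 markers, 4 were called higher in CA3 than in DG in HCl, TE and fixed frozen sections and 2 in paraffin. No CA2 marker was called higher there in any condition. The study's text also names CA3 as an irradiated region, and the titles were followed. Oligodendrocyte genes (Mbp, Mobp, Mog, Mag) moved with region: their sum was 4616 to 9548 CPM in HCl CA1, 4079 to 6108 in HCl CA3 and 2160 to 3437 in HCl DG. It was 3498 to 6425 CPM in TE CA1, 3238 to 4227 in CA3 and 1317 to 1797 in DG. Fixed frozen sections gave 1935 to 5844 CPM in CA1, 795.5 to 1623 in CA3 and 651 to 908 in DG, and paraffin gave 5761 to 9968, 2782 to 7747 and 1852 to 6054 CPM. All 4 were called higher in CA1 than in DG in HCl, TE and fixed frozen sections, and 2 were in paraffin. CA3 exceeded DG in 4, 4, 2 and 1 of them, and CA1 exceeded CA3 in 0, 0, 4 and 0, in HCl, TE, fixed frozen and paraffin sections. Their part in the results below was not tested.

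Most UMIs came from a few members. Across the series 10 of the 73 had over 10000 UMIs, led by the calcium sensor Syt1 with 37327 UMIs, Syt11 with 34722, Syt7 with 30506, Snap25 with 26172, Syn2 with 20124 and Cplx2 with 14650. In all, 32 of the 73 members had a UMI in every replicate, as did 2977 of the 32546 genes in the table. At the other end, 13 members stayed under 100 UMIs, and Cplx4, Stx11, Unc13d and Vamp7-ps had under 10 UMIs and were not tested. Of the 67 members tested between regions, 39 were called in at least 1 of the 12 region comparisons, against 28.6% of all genes tested. Of the 69 tested between conditions, 48 were called in at least 1 of 3 comparisons, against 59.3% of all genes. Genes with more UMIs pass more readily. Shares of all genes, here and below, were not matched to the members' level, and the part of abundance was not tested. Called in neither were 18 of the 73, the 4 untested members included, among them Snap23, Snap29, Stx12 and Stx17.

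Summed over the 73 members, CA3 held more of these mRNAs than CA1 in every condition. In HCl sections the members took 1.30% to 1.45% of a replicate's UMIs in CA1, 1.92% to 2.0% in CA3 and 1.70% to 2.03% in DG. In TE sections the shares were 1.56% to 1.59% in CA1, 1.77% to 2.12% in CA3 and 1.62% to 1.73% in DG. Fixed frozen sections gave 1.39% to 1.44% in CA1, 2.16% to 2.38% in CA3 and 1.50% to 1.60% in DG. The 4 CA1 replicates lay below all 4 CA3 replicates in each of these conditions. In paraffin the order was the same, with 1.17% to 1.67% in CA1, 1.82% to 2.26% in CA3 and 1.48% to 1.72% in DG, and the CA1 and DG ranges overlapped. These sums are descriptions with no test, and Syt1, Syt11, Syt7 and Snap25 weigh most in them.

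The region order of single members followed the same line. Among the 32 members with a UMI in every replicate, 16 had their highest mean in CA3 in HCl (50%), 16 in TE (50%), 22 in fixed frozen (68.8%) and 15 in paraffin (46.9%). Of the 2977 genes detected in every replicate, 32.9%, 33.4%, 31.6% and 33.9% were highest in CA3 in those conditions. Highest in CA3 in all 4 conditions were 8 members (25%, against 6.75% of the 2977 genes): Cplx1, Snap25, Snap91, Sv2b, Syn1, Syn2, Syt1 and Vamp1. Lowest in CA1 in all 4 were 7 (21.9%, against 5.84%): Cplx2, Snap25, Snap47, Stx3, Syn2, Syt13 and Syt7. In all, 5 members were lowest in DG in all 4 conditions (15.6%, against 7.39%), among them Rab3a, Stx5a, Sv2b and Syt11, and no member was lowest in CA3 in all 4 (3.93% of genes were). Stx5a and Syt16 were highest in CA1 throughout (6.25%, against 6.15%) and Stx3 in DG (3.12%, against 7.79%). These orders describe means and carry no test.

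**Figure D1:**
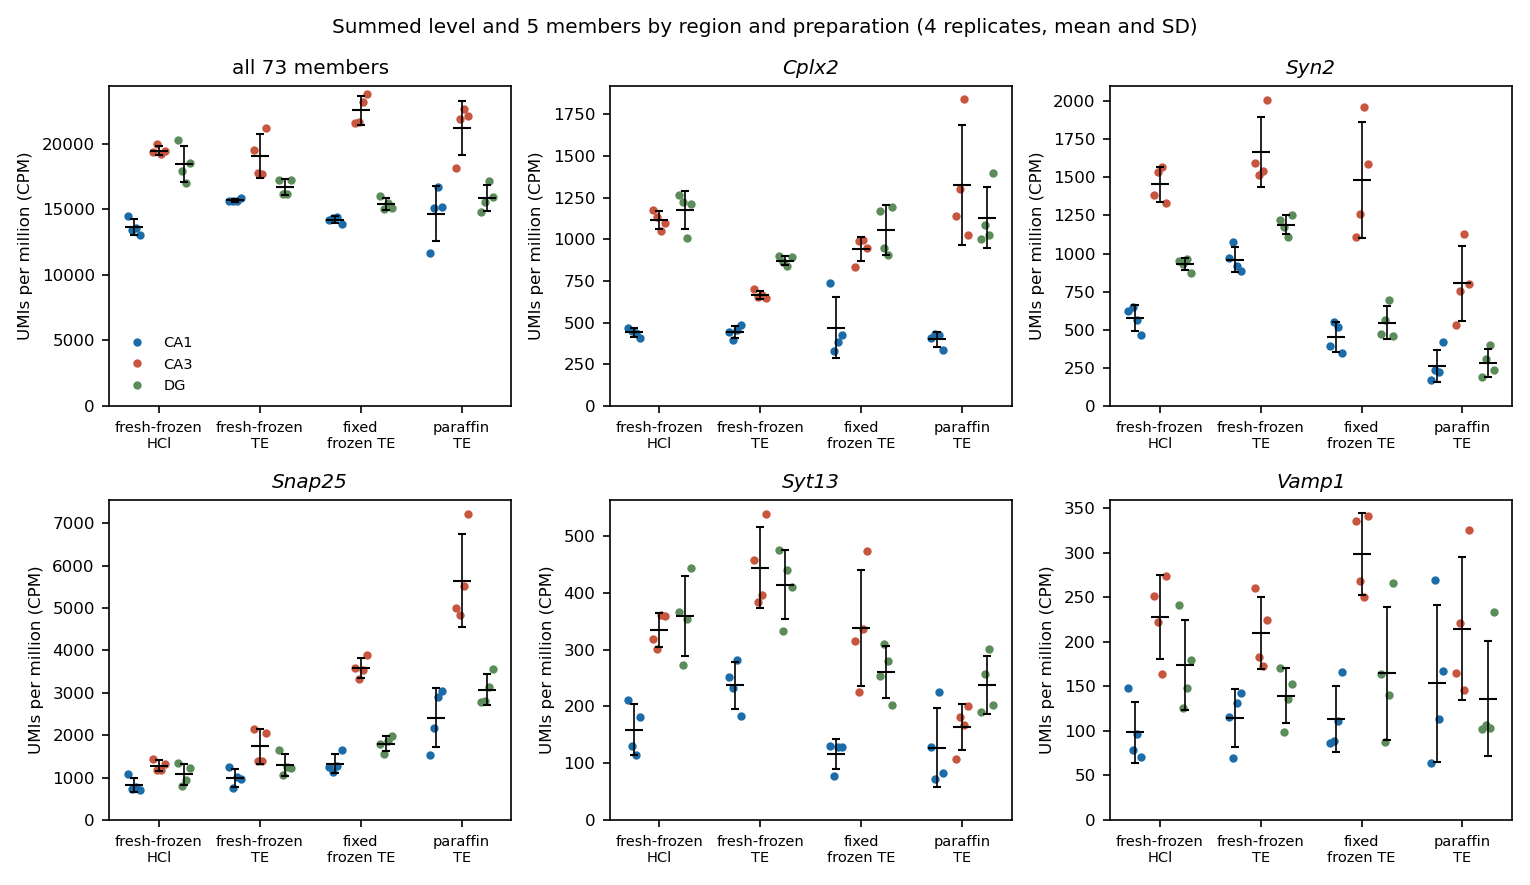
Levels in CPM (vertical axes, from 0) by condition and region (horizontal axis) for the sum of the 73 members and for Cplx2, Syn2, Snap25, Syt13 and Vamp1. Points are the 4 replicates and bars the mean ± SD. The summed level ran from 13045 to 14484 CPM in HCl CA1 and from 19210 to 19954 CPM in HCl CA3, and the CA1 and CA3 points stay apart in every condition.

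In 18 of 24 region comparisons and directions, a larger share of members than of all genes passed the test. The members were more often abundant than other genes, and the part of abundance in this was not tested. The test was edgeR's quasi-likelihood test over all genes with at least 10 UMIs in the fit, called at an adjusted p (Benjamini-Hochberg) under 0.05, and log2 fold changes are given ± SE. Between CA1 and CA3, 16 of 66 members tested in HCl were lower in CA1 (24.2%) against 5.06% of all genes tested, and 2 were higher (3.03% against 4.07%). In TE sections 7 of 64 were lower in CA1 (10.9% against 2.41%) and 1 was higher (1.56% against 1.99%). Fixed frozen sections gave 12 of 51 lower (23.5% against 3.86%) and 1 higher (1.96% against 3.34%). In paraffin 3 of 50 were lower (6% against 1.72%), and edgeR called 0 members higher, where 0.64% of genes were. DESeq2 also called 3 lower and 0 higher there, and 14 members had an unadjusted p under 0.05 in either direction. The paraffin count was 5 without CA1 replicate 3 and 7 without CA3 replicate 1. Across the conditions 22 members were called between CA1 and CA3. Of these, 11 were called in at least 2 conditions, 6 in at least 3 and 3 in all 4. None was called in opposite directions in different conditions. How often all genes were called in several conditions was not computed, so these counts describe the members only.

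Between CA3 and DG the calls leaned to CA3 in TE, fixed frozen and paraffin sections, and in HCl they did so when the replicate number was a block in the fit (17 higher and 11 lower). In HCl 8 of 67 members tested were higher in CA3 (11.9% against 4.46% of all genes) and 9 were lower (13.4% against 4.53%). TE sections gave 10 of 63 higher (15.9% against 4.35%) and 4 lower (6.35% against 3.56%). In the fixed frozen condition 14 of 56 were higher (25% against 4.29%) and 2 were lower (3.57% against 4.98%), the latter share below that of all genes. Paraffin gave 7 of 58 higher (12.1% against 1.93%) and 2 lower (3.45% against 1.28%). In all, 31 members were called between CA3 and DG, 14 in at least 2 conditions and 4 in all 4, each in 1 direction. Such counts were not computed for all genes. The paraffin count of 9 was 5 without CA3 replicate 2 or DG replicate 4, 4 without DG replicate 1 or 2, and 3 without DG replicate 3.

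Between CA1 and DG more members were lower than higher in CA1, except in TE with the replicate number as a block, where the split turned to 14 higher and 11 lower. In HCl 13 of 66 were lower (19.7% against 8.35% of all genes) and 4 were higher (6.06% against 8.61%). In TE 9 of 63 were lower (14.3% against 4.99%) and 7 higher (11.1% against 5.15%). In fixed frozen sections 6 of 58 were lower (10.3% against 4.78%) and 3 higher (5.17% against 3.36%). In paraffin 5 of 58 were lower (8.62% against 2.42%) and 1 higher (1.72% against 0.87%). In all, 25 members were called between CA1 and DG, and 2 of them (Rab3c and Unc13a) were called in opposite directions in different conditions. Here too no such counts were computed for all genes. The fixed frozen count was 5 without CA1 replicate 2, and the paraffin count was 3 without CA1 replicate 3 or 4 and 2 without DG replicate 3. Over all 12 region comparisons there were 146 calls, and in 121 of them the CPM ranges of the regions were apart. That share was not computed for all called genes, so it is no result about the members.

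Medians lay nearer to 0 than the called members. Between CA1 and CA3 the members' median log2 fold change was -0.25 in HCl, -0.04 in TE, -0.37 in fixed frozen and -0.33 in paraffin sections, against -0.01, -0.01, 0.00 and -0.04 for all genes tested. Between CA3 and DG it was 0.08, 0.15, 0.06 and 0.01, against 0.02, 0.03, -0.09 and -0.06. Between CA1 and DG it was -0.22, 0.10, -0.04 and -0.10, against 0.03, 0.01, -0.11 and -0.18. Replicates with the same number deviated together in 4 of these comparisons, and there a fit with the replicate number as a block called more members. It gave 28 of 67 members in place of 17 between CA3 and DG in HCl, 17 higher (8.92% of all genes were, in the same fit) and 11 lower (8.35%). In TE it gave 25 of 63 in place of 14, with 17 higher (7.68%) and 8 lower (5.85%). Between CA1 and DG in TE it gave 25 of 63 in place of 16, with 14 higher (8.32%) and 11 lower (7.82%). Between CA1 and CA3 in TE it gave 12 of 64 in place of 8, with 2 higher (3.95%) and 10 lower (4.46%). No member lost its call in the 4 blocked fits.

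**Figure D2:**
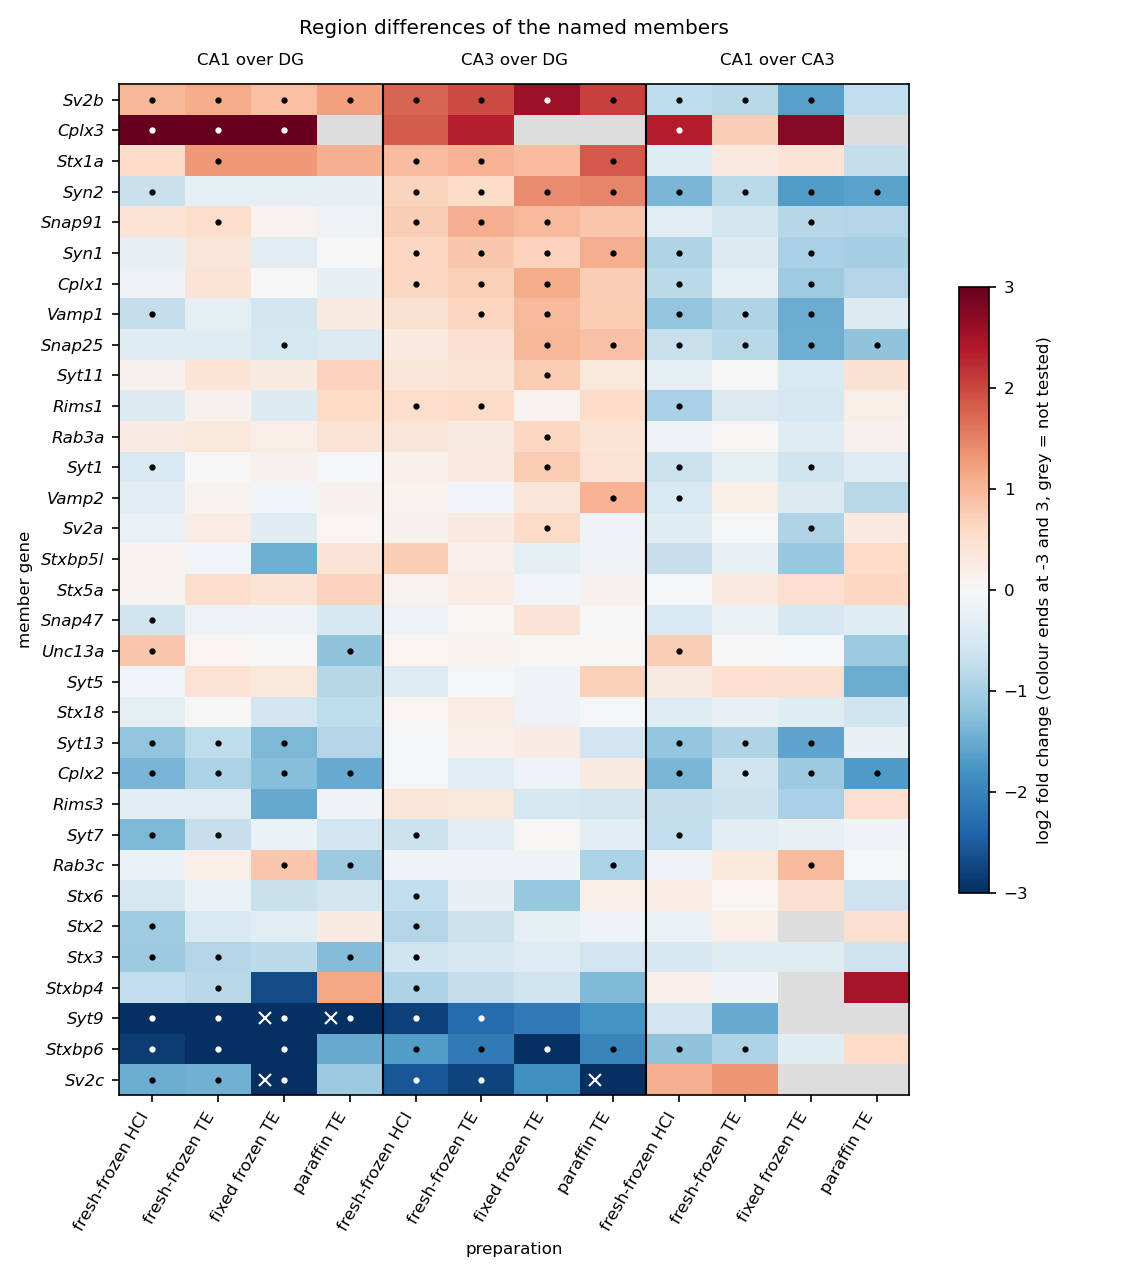
Fitted log2 fold change (colour, from -3 blue to 3 red) of 33 named members (rows) in the 12 region comparisons (columns). Dots (white on dark cells) mark calls at an adjusted p under 0.05, grey marks members not tested, and a small white cross marks the 4 cells where a region had 0 UMIs, whose colour is a fitted value and no bound. The CA1 over CA3 columns are mostly blue, and Sv2b is red over DG in all 8 columns.

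Among the vesicle membrane proteins, the SV2 family divided by region. SV2 proteins are transporter-like glycoproteins of the vesicle. Sv2a, the binding site of the drug levetiracetam, is the broadly expressed form. All 3 paralogs were called in some region comparison (28.6% of all genes tested were), and Sv2b and Sv2c went in opposite directions. Sv2b was lowest in DG and highest in CA3. In HCl its replicates read 384, 354, 376 and 439 CPM in CA3, 284, 215, 213 and 236 CPM in CA1 and 196, 86.8, 118 and 75.4 CPM in DG. In TE they read 332, 243, 272 and 401 CPM in CA3, 191, 166, 188 and 159 CPM in CA1 and 97.6, 54.5, 102 and 74.7 CPM in DG. In these fresh-frozen sections the 3 regions did not overlap.

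In the fixed frozen condition Sv2b read 448, 508, 572 and 322 CPM in CA3, 101, 182, 205 and 73.8 CPM in CA1 and 74.5, 104, 94.9 and 9.17 CPM in DG. Paraffin gave 356, 272, 356 and 451 CPM in CA3, 192, 126, 268 and 250.5 CPM in CA1 and 88.1, 133, 80.7 and 15.6 CPM in DG. The CA3 replicates were again above all DG replicates, while CA1 and DG overlapped in both fixed conditions. The log2 fold change of CA3 over DG was 1.74 ± 0.20 (adjusted p = 2.03e-06) in HCl and 1.96 ± 0.21 (adjusted p = 1.13e-07) in TE. It was 2.57 ± 0.24 (adjusted p = 2.88e-24) in fixed frozen and 2.06 ± 0.33 (adjusted p = 5.8e-06) in paraffin sections. CA1 over DG was 0.99 ± 0.22 (adjusted p = 0.000834) in HCl and 1.12 ± 0.19 (adjusted p = 5.27e-05) in TE. In fixed frozen sections CA1 over DG was 0.91 ± 0.30 (adjusted p = 0.0332), a call lost without CA1 replicate 2 or 3 or DG replicate 4 (adjusted p = 0.202, 0.234 and 0.137) and under DESeq2 (adjusted p = 0.224). In paraffin it was 1.24 ± 0.36 (adjusted p = 0.0225), lost without CA1 replicate 3 or 4 or DG replicate 3 or 4 (adjusted p = 0.168, 0.0606, 0.0713 and 0.0886) and under DESeq2 (adjusted p = 0.0557). CA1 over CA3 was -0.76 ± 0.16 (adjusted p = 0.00119) in HCl, -0.83 ± 0.18 (adjusted p = 0.00332) in TE and -1.64 ± 0.24 (adjusted p = 4.42e-09) in fixed frozen sections. In paraffin the difference of -0.73 ± 0.35 (adjusted p = 0.371) did not pass.

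Sv2c was a DG transcript at a low level. Its replicates read 42.6, 32.6, 31.7 and 33.5 CPM in HCl DG, 12.3, 8.2, 12.7 and 23.6 CPM in CA1 and 5.36, 10.7, 2.47 and 2.73 CPM in CA3. In TE they read 34.6, 25.6, 11.7 and 20.4 CPM in DG, 5.74, 10.5, 4.05 and 16.2 CPM in CA1 and 8.84, 0.899, 3.22 and 0 CPM in CA3. CA3 was below DG without overlap in both, and CA3 over DG was -2.58 ± 0.40 (adjusted p = 7.42e-05) in HCl and -2.77 ± 0.56 (adjusted p = 0.000927) in TE. The CA1 over DG value was -1.50 ± 0.37 (adjusted p = 0.00271) in HCl and -1.45 ± 0.44 (adjusted p = 0.024) in TE, where the ranges overlapped and the call was lost without CA1 replicate 1 or 3 or DG replicate 1 or 2 (adjusted p = 0.0966, 0.0941, 0.137 and 0.0783) and under DESeq2 (adjusted p = 0.0903). In the fixed frozen condition CA1 had 0 UMIs over its 4 replicates against 36 in DG, which made Sv2c at least 6.38-fold lower in CA1 at a floor of 3 UMIs per group (edgeR adjusted p = 4.98e-05). In paraffin CA3 had 0 UMIs against 12 in DG, at least 2.25-fold lower, and this did not pass. Such bounds cover counting error only.

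Sv2a differed little between regions. Its CA3 replicates ran from 341 to 446 CPM in fixed frozen sections, above 174 to 259.9 CPM in CA1 and 216 to 313 CPM in DG. The CA1 over CA3 value was -0.91 ± 0.23 (adjusted p = 0.00304) there. CA3 over DG was 0.58 ± 0.20 (adjusted p = 0.0461), lost without CA3 replicate 1, 2 or 3 or DG replicate 1, 3 or 4 (adjusted p = 0.0751, 0.156, 0.181, 0.151, 0.0726 and 0.0751) and under DESeq2 (adjusted p = 0.0668). In the other 3 conditions no region comparison of Sv2a passed.

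**Figure D3:**
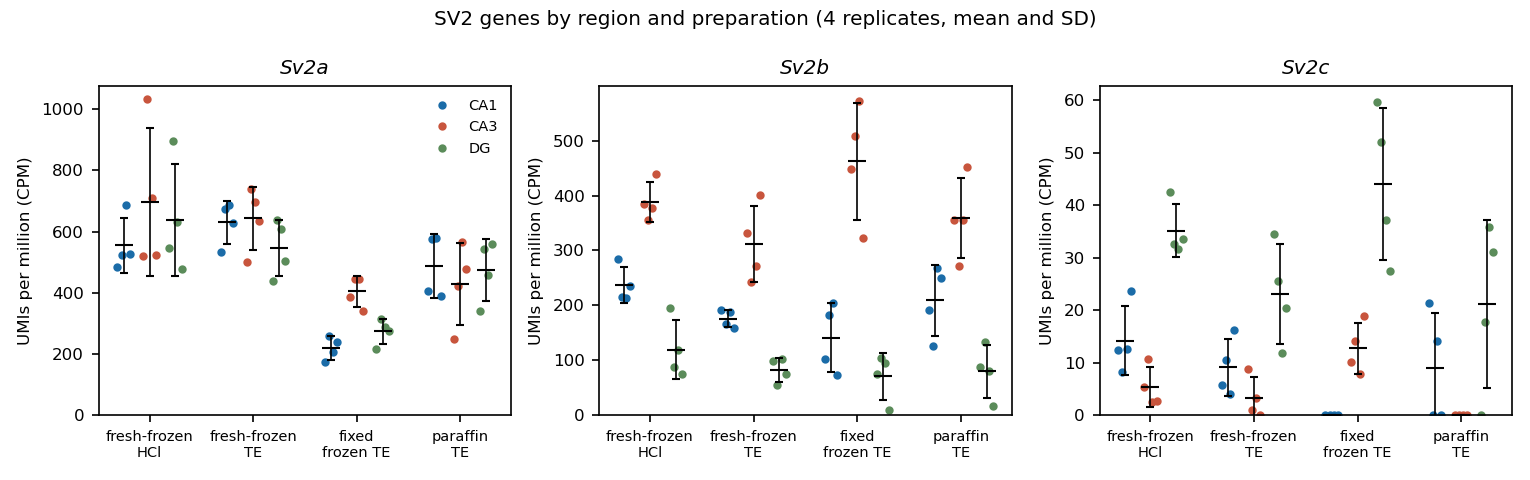
Levels of Sv2a, Sv2b and Sv2c in CPM (vertical axes, from 0) in the 3 regions under the 4 conditions (horizontal axis). Points are replicates (4 per group) and bars the mean ± SD. Sv2b is highest in CA3 in every condition, at 388 ± 35.9 CPM in HCl CA3 against 119 ± 54.3 CPM in HCl DG, while Sv2c is highest in DG.

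To show where this opposite pair starts, the promoters of Sv2b and Sv2c are given with those of the other DG-high genes Stxbp6 and Syt9 (described below), from 250 bases before to 50 bases after the start in RefSeq (GRCm38.p6, 5′ to 3′ on the gene's strand). Capitals mark a GC box (GGGCGG, either strand), the only motif of those searched (all 5 are named with Syn1 and Unc13a) that these windows hold. Sv2b has 4 RefSeq starts and its outermost is shown, at chr7:75309213-75309512 on the minus strand. Sv2c lies at chr13:96132528-96132827 on the minus strand, Stxbp6 at chr12:45074434-45074733 on the minus strand and Syt9 at chr7:107370540-107370839 on the plus strand.
Sv2b: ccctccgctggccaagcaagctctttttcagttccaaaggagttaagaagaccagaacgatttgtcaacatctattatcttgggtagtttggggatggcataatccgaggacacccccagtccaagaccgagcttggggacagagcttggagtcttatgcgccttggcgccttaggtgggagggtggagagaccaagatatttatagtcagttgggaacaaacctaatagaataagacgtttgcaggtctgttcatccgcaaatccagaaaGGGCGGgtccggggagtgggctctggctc
Sv2c: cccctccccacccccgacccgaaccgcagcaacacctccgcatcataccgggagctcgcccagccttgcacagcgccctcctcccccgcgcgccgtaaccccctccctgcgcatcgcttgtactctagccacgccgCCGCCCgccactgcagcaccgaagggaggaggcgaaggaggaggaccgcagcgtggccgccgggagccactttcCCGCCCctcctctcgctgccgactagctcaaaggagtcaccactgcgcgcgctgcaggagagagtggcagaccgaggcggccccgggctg
Stxbp6: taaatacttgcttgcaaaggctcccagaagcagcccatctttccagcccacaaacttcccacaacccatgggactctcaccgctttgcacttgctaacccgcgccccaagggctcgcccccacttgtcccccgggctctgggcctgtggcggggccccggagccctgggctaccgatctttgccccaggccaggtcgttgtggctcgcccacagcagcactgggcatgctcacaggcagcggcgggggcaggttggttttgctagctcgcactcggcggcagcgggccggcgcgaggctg
Syt9: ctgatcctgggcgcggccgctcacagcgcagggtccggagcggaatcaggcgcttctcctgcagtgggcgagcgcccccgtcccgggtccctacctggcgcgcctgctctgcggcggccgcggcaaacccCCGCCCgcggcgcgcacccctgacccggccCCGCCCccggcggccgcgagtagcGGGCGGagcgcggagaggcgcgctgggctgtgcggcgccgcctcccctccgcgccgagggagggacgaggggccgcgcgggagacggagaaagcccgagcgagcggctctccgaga
The Sv2b window is 51.3% G or C with 1 GC box, that of Sv2c 71.7% with 2, that of Stxbp6 66.3% with 0 and that of Syt9 79.3% with 3. All promoters in the table have a median of 52.7%. Over the families, 56 of the 73 members matched a promoter (70 starts), with a median of 62.5% G or C. A GC box was in 49 of the 70 windows (70%) against 35.7% of the 32851 promoters in the table.

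Synapsins are phosphoproteins that cluster vesicles. Between regions 2 of 3 were called (28.6% of all genes tested were), Syn1 and Syn2, both highest in CA3. Syn2 read 1387, 1534, 1569 and 1332 CPM in HCl CA3, 954, 931, 962 and 875 CPM in DG and 626, 652, 564 and 464 CPM in CA1. In fixed frozen sections it read 1110, 1263, 1965 and 1591 CPM in CA3, 469.6, 563, 697 and 459 CPM in DG and 391, 553, 520.0 and 350.5 CPM in CA1. The CA3 replicates lay above both other regions in each case. For CA1 over CA3 the log2 fold change was -1.37 ± 0.15 (adjusted p = 5.03e-08) in HCl, -0.81 ± 0.15 (adjusted p = 0.000703) in TE, -1.67 ± 0.18 (adjusted p = 1.35e-16) in fixed frozen and -1.61 ± 0.32 (adjusted p = 0.000107) in paraffin sections. The CA3 over DG value was 0.67 ± 0.12 (adjusted p = 0.000492) in HCl, 1.41 ± 0.16 (adjusted p = 1.29e-15) in fixed frozen and 1.46 ± 0.27 (adjusted p = 7.68e-05) in paraffin sections. In TE it was 0.54 ± 0.14 (adjusted p = 0.0149), lost without CA3 replicate 4 or DG replicate 2 or 3 (adjusted p = 0.0766, 0.0597 and 0.0638). Between CA1 and DG, Syn2 was called in HCl only (-0.67 ± 0.16, adjusted p = 0.00293), and its other CA1 over DG values ran from -0.29 to -0.26.

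Syn1 followed Syn2 in CA3. It read 606, 632, 507 and 649.6 CPM in HCl CA3, 302, 298, 360.0 and 393 CPM in CA1 and 482, 400.2, 336 and 364 CPM in DG, with CA3 above the others. For CA3 over DG the log2 fold change was 0.63 ± 0.14 (adjusted p = 0.00525) in HCl and 0.80 ± 0.16 (adjusted p = 0.000993) in TE. It was 0.69 ± 0.18 (adjusted p = 0.00302) in fixed frozen sections, lost without CA3 replicate 3 (adjusted p = 0.0991). In paraffin it was 1.08 ± 0.32 (adjusted p = 0.0331) with overlapping ranges, lost without CA3 replicate 2 or 3 or DG replicate 1, 2, 3 or 4 (adjusted p = 0.345, 0.172, 0.0839, 0.139, 0.0504 and 0.0895) and under DESeq2 (adjusted p = 0.11). CA1 over CA3 was -0.90 ± 0.15 (adjusted p = 9.71e-05) in HCl and -0.97 ± 0.20 (adjusted p = 0.000102) in fixed frozen sections. Syn3 was near the detection limit and no comparison of it passed.

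Among the SNARE proteins, 2 of 4 SNAP-25 family members, 3 of 8 VAMPs and 5 of 15 syntaxins were called between regions. Of all genes tested 28.6% were, and the VAMP and syntaxin counts lay near that share. Snap25 was highest in CA3 and lowest in CA1. SNAP-25 supplies a pair of helices of the SNARE complex and is the target of botulinum toxin A. In the fixed frozen condition it read 3575, 3324, 3538 and 3883 CPM in CA3, 1789, 1560, 1864 and 1982 CPM in DG and 1260, 1139, 1270 and 1642 CPM in CA1. In HCl it read 1449, 1188, 1188 and 1316 CPM in CA3, 1343, 799, 944 and 1235 CPM in DG and 1081, 741, 773 and 707 CPM in CA1. CA1 and CA3 did not overlap in either. The CA1 over CA3 value was -0.68 ± 0.15 (adjusted p = 0.00295) in HCl, -0.83 ± 0.17 (adjusted p = 0.00293) in TE, -1.48 ± 0.16 (adjusted p = 3.28e-16) in fixed frozen and -1.20 ± 0.29 (adjusted p = 0.00406) in paraffin sections. CA3 over DG was 0.98 ± 0.15 (adjusted p = 7.17e-09) in fixed frozen sections, and 0.89 ± 0.24 (adjusted p = 0.0197) in paraffin, lost without DG replicate 1, 2 or 3 (adjusted p = 0.0577, 0.152 and 0.0729). With the replicate block it was also called in HCl (adjusted p = 0.0112) and TE (adjusted p = 0.000116). For CA1 over DG the log2 fold change was -0.52 ± 0.16 (adjusted p = 0.0222) in fixed frozen sections with overlapping ranges, lost without CA1 replicate 1, 2 or 3 or DG replicate 1, 3 or 4 (adjusted p = 0.0799, 0.165, 0.0763, 0.0768, 0.143 and 0.134) and under DESeq2 (adjusted p = 0.0926). Snap47, a SNAP-25 relative, was lower in CA1 than in DG in HCl (-0.61 ± 0.18, adjusted p = 0.012), a call lost without CA1 replicate 2 or 3 (adjusted p = 0.0695 and 0.0507).

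The vesicle-side SNARE Vamp1 (synaptobrevin 1) had the same order in HCl. It read 252, 223, 164 and 274 CPM in HCl CA3, 241, 126, 148 and 180.0 CPM in DG and 148, 78.7, 96.6 and 70.7 CPM in CA1. For CA1 over CA3 the log2 fold change was -1.19 ± 0.20 (adjusted p = 0.000117) in HCl, -0.90 ± 0.20 (adjusted p = 0.00537) in TE and -1.48 ± 0.29 (adjusted p = 2.44e-05) in fixed frozen sections, without overlap. In paraffin it was -0.41 ± 0.41 (adjusted p = 0.78) and did not pass. Vamp2, the main synaptobrevin of forebrain synapses, was also lower in CA1 than in CA3 in HCl (-0.47 ± 0.14, adjusted p = 0.0289), a call lost without CA1 replicate 1, 2 or 3 or CA3 replicate 1, 2 or 4 (adjusted p = 0.0652, 0.074, 0.111, 0.0983, 0.0768 and 0.0699) and with no filter on low counts (adjusted p = 0.0537). In TE its CA1 over CA3 value was 0.20 ± 0.15 (adjusted p = 0.634). It was higher in CA3 than in DG in paraffin (1.05 ± 0.25, adjusted p = 0.00431), lost without DG replicate 2 (adjusted p = 0.0841).

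Syntaxins at the plasma membrane differed in both directions. Stx1a, the classical neuronal syntaxin, was lowest in DG, with 39.7, 31, 40.6 and 46 CPM in HCl DG, 54.7, 47.5, 69 and 47.1 CPM in CA1 and 56.8, 66.4, 64.2 and 99.8 CPM in CA3. DG lay below both other regions there. The CA3 over DG value was 0.92 ± 0.24 (adjusted p = 0.0133) in HCl, lost without CA3 replicate 4 or DG replicate 2 (adjusted p = 0.056 and 0.0654). The TE value was 1.04 ± 0.30 (adjusted p = 0.0231), lost without CA3 replicate 2 or DG replicate 1, 2 or 3 (adjusted p = 0.13, 0.0811, 0.0913 and 0.101) and under DESeq2 (adjusted p = 0.0753), and the paraffin value was 1.84 ± 0.52 (adjusted p = 0.0232), lost without CA3 replicate 2 or 3 or DG replicate 1 or 3 (adjusted p = 0.127, 0.204, 0.0666 and 0.132) and under DESeq2 (adjusted p = 0.0781). CA1 over DG was called in TE (1.31 ± 0.29, adjusted p = 0.00137). Stx3, which serves exocytosis in dendrites and at apical membranes, went the other way. It read 249.8, 186, 260.2 and 293 CPM in HCl DG, 186, 112, 160.5 and 168 CPM in CA3 and 130.0, 116, 108 and 86.4 CPM in CA1. The CA1 over DG value was -1.09 ± 0.19 (adjusted p = 4e-05) in HCl and -0.87 ± 0.20 (adjusted p = 0.00174) in TE. In paraffin it was -1.30 ± 0.38 (adjusted p = 0.0247), with overlapping ranges, and the call was lost without CA1 replicate 1, 2 or 3 or DG replicate 3 or 4 (adjusted p = 0.186, 0.07, 0.0555, 0.0832 and 0.139) and under DESeq2 (adjusted p = 0.159). Astrocyte genes (Gfap, Aqp4, Slc1a2, Slc1a3, Gja1) were also lower in CA1 than in DG, for 2 of 5 genes in HCl and in TE, 3 in fixed frozen and 1 in paraffin sections, and their part in this difference was not tested.

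Complexins, the small proteins that bind the assembled SNARE complex, were called between regions in 3 of 4 cases (28.6% of all genes tested were). Cplx2 was lower in CA1 than in both other regions in every condition. It read 469, 449, 437 and 409 CPM in HCl CA1 against 1176, 1136, 1051 and 1097 CPM in CA3 and 1266, 1222, 1009 and 1210 CPM in DG. In TE it read 442, 398, 458 and 483 CPM in CA1, 700.1, 653, 664 and 647 CPM in CA3 and 897, 862, 837 and 893 CPM in DG. The CA1 ranges lay below the others in both. CA1 was lowest after fixation too. Fixed frozen sections gave 739, 332, 384 and 424 CPM in CA1, 835, 988, 994 and 947 CPM in CA3 and 1170, 947, 903 and 1193 CPM in DG. Paraffin gave 406, 432, 424 and 334 CPM in CA1, 1142, 1300, 1841 and 1028 CPM in CA3 and 1003, 1085, 1027 and 1400 CPM in DG, again with CA1 apart. For CA1 over DG the log2 fold change was -1.41 ± 0.17 (adjusted p = 2.05e-08) in HCl, -0.95 ± 0.14 (adjusted p = 3.56e-06) in TE, -1.29 ± 0.18 (adjusted p = 4.43e-10) in fixed frozen and -1.50 ± 0.26 (adjusted p = 2.19e-06) in paraffin sections. CA1 over CA3 was -1.38 ± 0.14 (adjusted p = 2.2e-08), -0.60 ± 0.14 (adjusted p = 0.00897), -1.10 ± 0.19 (adjusted p = 9.08e-07) and -1.69 ± 0.30 (adjusted p = 5.21e-06) in the same order. Between CA3 and DG no unblocked fit called Cplx2, with values of -0.34 to 0.27, and the block called it lower in CA3 in TE (-0.34, adjusted p = 0.0166).

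The paralogs of Cplx2 went other ways. Cplx1, the other abundant complexin, was highest in CA3, with 517, 517, 484 and 547 CPM in TE CA3, 438, 378, 517 and 362 CPM in CA1 and 346, 315, 382 and 241 CPM in DG, where CA3 lay above DG and overlapped CA1. For CA3 over DG the log2 fold change was 0.62 ± 0.16 (adjusted p = 0.00996) in HCl, 0.72 ± 0.15 (adjusted p = 0.00188) in TE and 1.11 ± 0.18 (adjusted p = 1.26e-07) in fixed frozen sections, and CA1 over CA3 was -0.82 ± 0.16 (adjusted p = 0.000567) in HCl and -1.08 ± 0.20 (adjusted p = 6.97e-06) in fixed frozen sections. Interneuron genes (8 genes) differed too, with 0 called higher and 1 lower in CA3 than in DG in HCl, 2 and 0 in TE, 2 and 1 in fixed frozen and 0 and 0 in paraffin sections, and their part was not tested. Cplx3, known from ribbon synapses, was rare, with 134 UMIs over all replicates, and was highest in CA1. It read 13.7, 14.8, 28.8 and 39.3 CPM in HCl CA1, 0, 2.14, 3.7 and 10.9 CPM in CA3 and 0, 0, 1.27 and 4.19 CPM in DG, with CA1 apart from both. CA1 over DG was 4.13 ± 0.77 (adjusted p = 3.95e-05) in HCl. It was 3.05 ± 0.83 (adjusted p = 0.00602) in TE (DESeq2 adjusted p = 0.067), and 3.50 ± 1.25 (adjusted p = 0.0161) in fixed frozen sections, where the ranges overlapped. The fixed frozen call was lost without DG replicate 3 (adjusted p = 0.0683), under DESeq2 and with the replicate block. Only 5 of the fits with a replicate left out tested Cplx3 there.

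Synaptotagmins sense calcium or act in membrane traffic, and 10 of 16 were called in some region comparison (28.6% of all genes tested were). The DG was marked by Syt9, a calcium sensor of some fast-releasing neurons, and by Syt17, also known as the B/K protein. Syt9 read 32.5, 51.1, 15.1 and 13.6 CPM in TE DG, 3.44, 1.51, 1.35 and 0 CPM in CA1 and 7.37, 2.7, 8.58 and 3.91 CPM in CA3. In HCl it read 53.9, 40.3, 104 and 4.19 CPM in DG, 10.9, 3.28, 3.45 and 0 CPM in CA1 and 9.65, 7.5, 7.41 and 6.84 CPM in CA3. The DG replicates stood above the others in TE, while the ranges of HCl overlapped. The CA1 over DG value was -3.32 ± 0.50 (adjusted p = 2.72e-06) in HCl and -3.80 ± 0.58 (adjusted p = 4.4e-06) in TE, and CA3 over DG was -2.80 ± 0.44 (adjusted p = 9.56e-05) and -2.31 ± 0.46 (adjusted p = 0.000861). CA1 had 0 UMIs of Syt9 against 18 in DG in fixed frozen sections, at least 3.19-fold lower, and 0 against 27 in paraffin, at least 3.44-fold lower. Both were called (adjusted p = 0.00924 and 0.0103). The first was lost without CA1 replicate 2 (adjusted p = 0.0815) and the second without CA1 replicate 3 or DG replicate 2 (adjusted p = 0.0523 and 0.0858), and DESeq2 gave no adjusted p for either. Syt17 read 48.2, 82.2, 38.1 and 33.5 CPM in HCl DG, 17.8, 6.56, 16.1 and 7.86 CPM in CA1 and 11.8, 17.1, 8.64 and 1.37 CPM in CA3, without overlap of DG. Its CA1 over DG value was -1.95 ± 0.36 (adjusted p = 8.2e-05) in HCl and -1.67 ± 0.34 (adjusted p = 0.000664) in TE, and CA3 over DG was -2.33 ± 0.39 (adjusted p = 0.000199) and -2.58 ± 0.34 (adjusted p = 4.07e-06). In fixed frozen and paraffin sections neither comparison of Syt17 with DG passed, nor did CA3 over DG of Syt9.

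Syt13 and Syt7 were low in CA1. Syt13, which lacks calcium binding, read 211, 129.5, 114 and 181 CPM in HCl CA1, 319.5, 301, 362 and 358 CPM in CA3 and 366, 273, 354 and 444 CPM in DG. CA1 stood below both others there. For CA1 over DG the log2 fold change was -1.19 ± 0.20 (adjusted p = 1.99e-05) in HCl, -0.77 ± 0.16 (adjusted p = 0.000674) in TE and -1.35 ± 0.27 (adjusted p = 2.5e-05) in fixed frozen sections. The CA1 over CA3 value was -1.16 ± 0.18 (adjusted p = 3.6e-05), -0.91 ± 0.17 (adjusted p = 0.000661) and -1.58 ± 0.29 (adjusted p = 3.02e-06) in the same conditions, and neither passed in paraffin. Syt7, the slow calcium sensor of facilitation and asynchronous release, read 1175, 1338, 1193 and 1265 CPM in HCl CA1, 2055, 1934, 1947 and 2043 CPM in CA3 and 3792, 3175, 2394 and 3270 CPM in DG. The 3 regions were apart, in the order DG, CA3, CA1. CA1 over DG was -1.35 ± 0.17 (adjusted p = 1.6e-07) in HCl and -0.70 ± 0.14 (adjusted p = 0.00041) in TE, and CA3 over DG was -0.64 ± 0.13 (adjusted p = 0.00214) in HCl. In fixed frozen and paraffin sections no region comparison of Syt7 passed.

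The most abundant member, Syt1, the fast calcium sensor of forebrain synapses, differed less. It read 2067, 1976, 1746 and 2121 CPM in fixed frozen CA3, 1130, 1255, 1347 and 1660 CPM in CA1 and 1163, 1061, 1345 and 1055 CPM in DG, and CA3 was above both others. CA3 over DG was 0.76 ± 0.15 (adjusted p = 3.41e-05) there, and CA1 over CA3 was -0.59 ± 0.16 (adjusted p = 0.00771) there and -0.64 ± 0.14 (adjusted p = 0.00198) in HCl. Syt11, which does not bind calcium, was called in the unblocked fits only in fixed frozen sections, higher in CA3 than in DG (0.75 ± 0.15, adjusted p = 3.08e-05). Its fitted values over DG were above 0 in all 8 comparisons. Syt2, Syt3, Syt4 and Syt16 were the other synaptotagmins called, each in 1 or 2 region comparisons.

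Of the 7 syntaxin-binding proteins 4 were called between regions (28.6% of all genes tested were). Stxbp6 (amisyn, a SNARE-motif protein that competes with VAMP) was a DG transcript. It read 85.2, 178, 133 and 201 CPM in HCl DG, 45, 63.2, 40.7 and 31.4 CPM in CA3 and 19.1, 22.9, 20.7 and 15.7 CPM in CA1. In TE it read 256, 295, 183 and 211 CPM in DG, 67.8, 56.7, 31.1 and 56.7 CPM in CA3 and 31, 31.6, 28.4 and 13.5 CPM in CA1. DG lay above both others in each. In fixed frozen sections it read 581, 374, 491 and 477 CPM in DG, 71.3, 35.3, 23.5 and 37.9 CPM in CA3 and 14.5, 38.7, 42.6 and 18.4 CPM in CA1. The CA1 over DG value was -2.84 ± 0.27 (adjusted p = 7.09e-11) in HCl, -3.07 ± 0.22 (adjusted p = 5.86e-13) in TE and -3.87 ± 0.32 (adjusted p = 1.16e-31) in fixed frozen sections. The CA3 over DG value was -1.67 ± 0.24 (adjusted p = 3.77e-05) in HCl, -2.13 ± 0.21 (adjusted p = 3.47e-08) in TE and -3.52 ± 0.30 (adjusted p = 4.43e-29) in fixed frozen sections. In paraffin CA3 over DG was -1.98 ± 0.55 (adjusted p = 0.0188), lost without CA3 replicate 4 or DG replicate 3 or 4 (adjusted p = 0.0561, 0.0504 and 0.0708) and under DESeq2 (adjusted p = 0.0788), and CA1 over DG was -1.52 ± 0.54 (adjusted p = 0.0913).

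**Figure D4:**
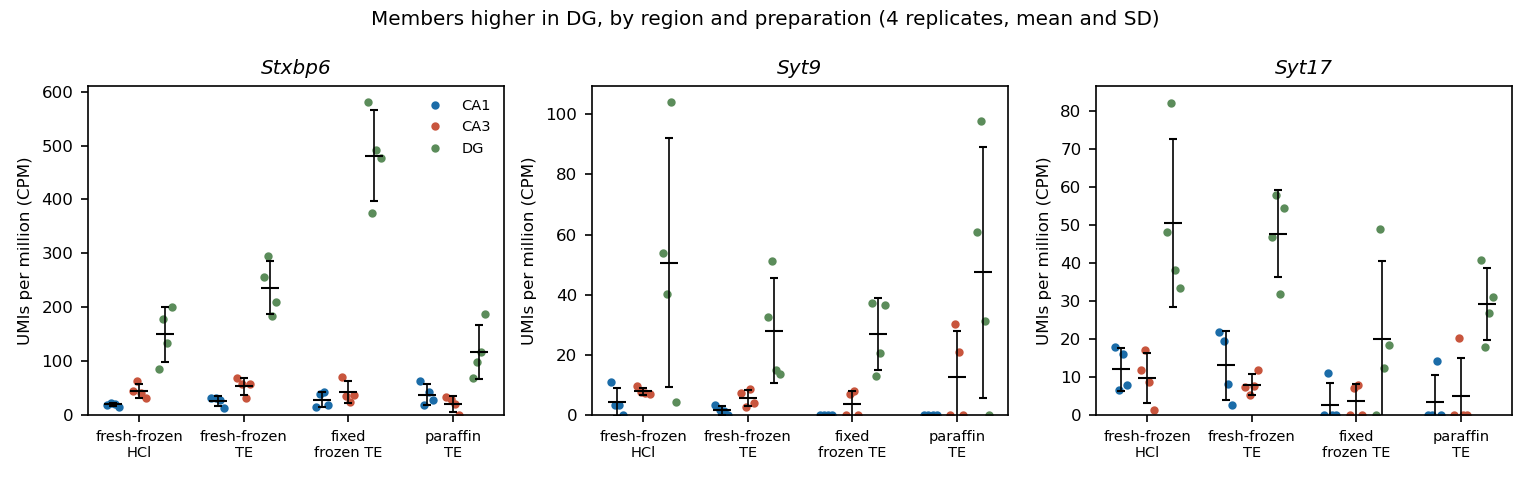
Levels of Stxbp6, Syt9 and Syt17 in CPM (vertical axes, from 0) in the 3 regions under the 4 conditions (horizontal axis). Points are replicates (4 per group) and bars the mean ± SD. Stxbp6 is highest in DG, at 149 ± 51.3 CPM in HCl DG against 19.6 ± 3.04 CPM in HCl CA1, and falls to 117 ± 50.5 CPM in paraffin DG.

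The endocytic adaptor Snap91 (AP180), which sizes vesicles as clathrin rebuilds them, was highest in CA3. It read 335, 265, 236 and 313 CPM in TE CA3, 229.7, 178, 199.9 and 184 CPM in CA1 and 175, 138, 122 and 122 CPM in DG. For CA3 over DG the log2 fold change was 0.75 ± 0.17 (adjusted p = 0.00441) in HCl, 1.08 ± 0.18 (adjusted p = 8.47e-05) in TE and 0.98 ± 0.18 (adjusted p = 2.36e-06) in fixed frozen sections. Of the priming and docking proteins, 3 of 4 Munc13 genes, 2 of 4 Rab3 genes and 1 of 4 RIM genes were called between regions. Of all genes tested 28.6% were, and the RIM count lay near that share. Rims1 was lower in CA1 than in CA3 in HCl (-0.97 ± 0.14, adjusted p = 1.33e-05). Rab3a, a vesicle GTPase, was higher in CA3 than in DG in fixed frozen sections (0.61 ± 0.16, adjusted p = 0.00356).

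Unc13a and Rab3c were the members called in opposite directions. Unc13a (Munc13-1, the main priming factor) read 383, 329.5, 366 and 440.1 CPM in HCl CA1, 251, 201, 198 and 219 CPM in CA3 and 224, 205, 196 and 230.3 CPM in DG. CA1 was above the others, with 0.82 ± 0.17 (adjusted p = 0.000591) over DG and 0.73 ± 0.15 (adjusted p = 0.00175) over CA3. In paraffin it read 42.7, 126, 127 and 55.7 CPM in CA1 and 203, 169, 296 and 124 CPM in DG, a CA1 over DG value of -1.20 ± 0.37 (adjusted p = 0.0395) with overlapping ranges. That call was lost without CA1 replicate 1, 2 or 4 or DG replicate 1, 2 or 3 (adjusted p = 0.191, 0.0524, 0.171, 0.0756, 0.0601 and 0.349) and under DESeq2 (adjusted p = 0.27). Rab3c, another vesicle GTPase, was higher in CA1 than in DG in fixed frozen sections (0.80 ± 0.23, adjusted p = 0.0116), with overlapping ranges, a call lost without CA1 replicate 2 or DG replicate 3 (adjusted p = 0.201 and 0.0709). In paraffin it was lower (-1.10 ± 0.30, adjusted p = 0.0128), lost without CA1 replicate 3 or 4 or DG replicate 3 (adjusted p = 0.0959, 0.0679 and 0.0519). DESeq2 called neither of the Rab3c differences (adjusted p = 0.0841 and 0.0916). Unc13c, the paralog best known from the cerebellum, was higher in CA3 than in DG in HCl (0.87 ± 0.23, adjusted p = 0.0136) and Unc13b was higher in CA1 than in DG in HCl (0.89 ± 0.26, adjusted p = 0.013).

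The promoters of Syn1 and Unc13a are shown because they hold matches to the rarest of the motifs searched, parts of the RE1 element. Syn1 holds the left part only, and a whole element was not searched. The neuron-restrictive silencer REST is known to bind the RE1 element. It was searched as its left part (TTCAGCACC) and right part (GGACAGCGC), on both strands, together with the cAMP response element (TGACGTCA), the E-box (CACGTG) and the GC box, and no motif overlaps another here. Both windows are RefSeq, GRCm38.p6, 5′ to 3′ on the gene's strand, at chrX:20920869-20921168 on the minus strand and chr8:71671708-71672007 on the minus strand. Capitals mark in Syn1 the left part and the cAMP response element, in that order. In Unc13a they mark 2 GC boxes, then the right and left parts on the opposite strand.
Syn1: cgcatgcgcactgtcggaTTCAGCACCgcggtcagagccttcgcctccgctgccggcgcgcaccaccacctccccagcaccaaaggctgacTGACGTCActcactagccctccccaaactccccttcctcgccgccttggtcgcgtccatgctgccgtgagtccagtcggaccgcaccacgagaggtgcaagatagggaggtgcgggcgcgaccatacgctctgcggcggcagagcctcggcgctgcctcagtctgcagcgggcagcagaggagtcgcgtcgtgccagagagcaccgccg
Unc13a: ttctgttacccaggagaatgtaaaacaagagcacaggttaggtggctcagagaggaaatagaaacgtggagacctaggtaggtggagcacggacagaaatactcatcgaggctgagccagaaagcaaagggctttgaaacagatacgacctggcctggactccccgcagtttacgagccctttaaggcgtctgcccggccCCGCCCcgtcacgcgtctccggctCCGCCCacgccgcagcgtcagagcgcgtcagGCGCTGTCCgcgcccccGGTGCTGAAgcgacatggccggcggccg
The left part was in 0.371% of the 32851 promoters and 2.86% of the members' 70, the right part in 0.405% and 1.43% (Unc13a alone). The cAMP response element was in 1.79% and 2.86% (Stxbp3 and Syn1), and the E-box in 7.15% and 12.9%. Such matches describe the letters only. By its mean, Syn1 was highest in CA3 in all 4 conditions, and Unc13a was highest in CA1 in HCl, in CA3 in TE and fixed frozen sections and in DG in paraffin.

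Region differences themselves were compared between conditions by testing both region-by-condition terms together, against TE sections. In all, 4 members passed. With the replicate number as a block, 10 of 69 passed in HCl (4.15% of all genes did), 3 of 66 in fixed frozen (1.52%) and 3 of 67 in paraffin sections (1.74%), and DESeq2 called 2, 2 and 4. In HCl 1 of 69 members passed (1.19% of all genes did), Cplx2, whose CA1 over DG value differed from that in TE by -0.48 and whose CA3 over DG value by 0.32 on the log2 scale (adjusted p = 0.0294). This call was lost without HCl CA1 replicate 2 or 3, HCl CA3 replicate 1 or 4, fresh TE CA1 replicate 1, 3 or 4, fresh TE CA3 replicate 2 or 3 or fresh TE DG replicate 2 or 3 (adjusted p = 0.0551, 0.0614, 0.0829, 0.0538, 0.0654, 0.0534, 0.0743, 0.0741, 0.0506, 0.0545 and 0.0508). In the fixed frozen condition 1 of 66 passed (0.724% of genes), Syn2, whose CA3 over DG value differed by 0.83 and whose CA1 over DG value by -0.07 (adjusted p = 0.0345). It was lost without fresh TE CA1 replicate 1 or 3, fresh TE CA3 replicate 2 or 3, fresh TE DG replicate 2 or 3, fixed CA1 replicate 4 or fixed CA3 replicate 3 (adjusted p = 0.0962, 0.0696, 0.156, 0.142, 0.0842, 0.0764, 0.0538 and 0.229). In paraffin 2 of 67 passed (1.14% of genes). Rab3c had differences of -1.44 in CA1 over DG and -0.99 in CA3 over DG (adjusted p = 0.0172), lost without fresh TE DG replicate 1 or 2, paraffin CA1 replicate 3 or 4 or paraffin DG replicate 3 (adjusted p = 0.0721, 0.0902, 0.0535, 0.0664 and 0.0744). Vamp2 had differences of 0.98 in CA3 over DG and -0.12 in CA1 over DG (adjusted p = 0.0252), lost without fresh TE CA3 replicate 3 or 4, paraffin CA1 replicate 1, paraffin CA3 replicate 2 or 3 or paraffin DG replicate 2 (adjusted p = 0.054, 0.105, 0.0641, 0.148, 0.0915 and 0.0522). The unblocked counts of 1 or 2 members leave no share to compare with that of all genes.

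Other presynaptic genes were also called lower more often than higher in CA1 against CA3. These were 37 genes for vesicle transporters, active zone, priming and recycling. Between CA1 and CA3, 37 were tested in HCl, 37 in TE, 33 in fixed frozen and 35 in paraffin sections. Percentages in parentheses are the shares of all genes tested. In HCl 19 were lower in CA1 (5.06%) and 2 higher (4.07%), and in TE 9 (2.41%) and 2 (1.99%). Fixed frozen sections gave 11 lower (3.86%) and 2 higher (3.34%), and paraffin 11 (1.72%) and 1 (0.64%). Between CA3 and DG 36, 36, 36 and 35 were tested in HCl, TE, fixed frozen and paraffin sections. In HCl 7 were higher (4.46%) and 5 lower (4.53%) in CA3, and in TE 10 (4.35%) and 3 (3.56%). Fixed frozen sections gave 12 higher (4.29%) and 5 lower (4.98%), and paraffin 7 (1.93%) and 4 (1.28%). Between CA1 and DG 37, 37, 35 and 34 were tested in that order. In HCl 0 were higher (8.61%) and 12 lower (8.35%) in CA1, and in TE 4 (5.15%) and 7 (4.99%). Fixed frozen sections gave 1 higher (3.36%) and 6 lower (4.78%), and paraffin 0 (0.87%) and 7 (2.42%). Recycling genes (Dnm1, Dnm3, Synj1, Amph, Sh3gl2, Itsn1) were called only higher in CA3 than in DG, 3 of 6 in HCl and in paraffin, and 4 of 6 in TE and in fixed frozen sections. Dnm1, the neuronal dynamin, had a CA3 over DG log2 fold change of 1.02, 1.09, 1.43 and 1.58 in HCl, TE, fixed frozen and paraffin sections, all called. Synpr, a vesicle protein of mossy fibres, had a CA1 over DG log2 fold change of -2.46, -2.24, -3.12 and -3.75 in that order, all called lower.

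Between conditions, 48 of 69 members were called in at least 1 comparison. The 3 comparisons pooled the regions (24 replicates each, region as a covariate). These fits took the replicates of the 3 regions as independent. Same-numbered replicates deviated together in some region comparisons of fresh-frozen sections. If those came from 1 mouse or section, the p-values of these fits can be too small. HCl over TE, which asks what the permeabilization step changes, gave 19 of 69 members higher (27.5% against 16.2% of all genes) and 13 lower (18.8% against 14.3%), with medians of 0.01 for members and 0.10 for all genes. Fixed frozen over fresh-frozen TE, which asks what fixation of the brain changes, gave 14 of 66 higher (21.2% against 15.8%) and 22 lower (33.3% against 32.9%). All genes moved by a median of -0.39 there and the members by -0.10. Paraffin over fixed frozen, which asks what embedding changes, gave 9 of 62 higher (14.5% against 13.7%) and 14 lower (22.6% against 14.4%), with medians of 0.06 and 0.05. With DESeq2's size factors that split turned to 16 higher and 10 lower, and all genes then had a median of 0.22. Each condition was a set of libraries of its own, so that condition and library cannot be told apart. Oligodendrocyte genes moved as well, with 4 of 4 lower in fixed than in fresh-frozen TE sections and 4 of 4 higher in paraffin than in fixed frozen ones (medians of -1.07 and 1.73), and their part was not tested.

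After fixation, Stxbp5l (tomosyn-2, a brake on SNARE assembly) and Rims1 (RIM1) had the largest falls among named members. Stxbp5l had a log2 fold change of -3.17 ± 0.28 (adjusted p = 7.03e-18). In CA3 it read 73.7, 193, 205 and 117 CPM in fresh TE sections and 0, 28.2, 15.7 and 18.9 CPM in fixed ones, without overlap. Rims1 had -2.05 ± 0.12 (adjusted p = 8.96e-28), going from 833, 1049, 1139 and 1100 CPM to 234, 205, 258 and 246 CPM in CA3. Stxbp4 (-1.43 ± 0.34, adjusted p = 0.000183) and Stx2 (-1.37 ± 0.41, adjusted p = 0.00288) fell too, as did Stx6 (-1.24 ± 0.19, adjusted p = 4.9e-08), a Golgi syntaxin, and Sv2a (-1.07 ± 0.12, adjusted p = 5.27e-13). Other members rose. Rab3a rose from 256, 209.6, 193 and 258 CPM to 1100, 995, 1229 and 1174 CPM in CA3 (1.96 ± 0.11, adjusted p = 1.14e-29 over the 3 regions). Snap91 (1.29 ± 0.11, adjusted p = 1.69e-17), Stx5a (0.91 ± 0.23, adjusted p = 0.000653), Snap47 (0.82 ± 0.10, adjusted p = 1.22e-10) and Vamp2 (0.70 ± 0.11, adjusted p = 2.09e-08) rose by less. All of the named falls lay below the all-gene median of -0.39.

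With HCl in place of TE, Rab3c had the largest fall among named members. It read 165, 119, 156 and 113 CPM in HCl DG and 325, 312, 426 and 479 CPM in TE DG, and the log2 fold change over the regions was -1.71 ± 0.11 (adjusted p = 3.22e-18), without overlap of the ranges. Stxbp5l (-0.83 ± 0.18, adjusted p = 0.000223), Rims1 (-0.77 ± 0.10, adjusted p = 6.17e-09) and Snap47 (-0.64 ± 0.10, adjusted p = 6.88e-07) were lower too. Among members with at least 10 UMIs a replicate, those that rose most were Stx2 (0.95 ± 0.19, adjusted p = 7.78e-05), Unc13a (0.95 ± 0.11, adjusted p = 3.33e-10), Stx18 (0.85 ± 0.18, adjusted p = 0.000166), a syntaxin of the endoplasmic reticulum, and Rims3 (0.85 ± 0.22, adjusted p = 0.0018). In CA1, Unc13a ran from 114 to 129.7 CPM in TE and from 329.5 to 440.1 CPM in HCl.

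After embedding in paraffin, Stxbp6, Syn1 and Rab3a were lower than in fixed frozen sections. Stxbp6 had a log2 fold change of -1.76 ± 0.25 (adjusted p = 3.42e-10), and its DG level went from 581, 374, 491 and 477 CPM to 67.8, 97.8, 117 and 187 CPM. Syn1 (-1.32 ± 0.17, adjusted p = 1.4e-12), Rab3a (-1.18 ± 0.15, adjusted p = 3.69e-13), Syt5 (-1.06 ± 0.25, adjusted p = 0.000168) and Syn2 (-1.04 ± 0.15, adjusted p = 6.71e-10) fell as well. Stx2 (1.35 ± 0.56, adjusted p = 0.0368) and Stx6 (1.05 ± 0.27, adjusted p = 0.000927) rose, and so did Stx3 (0.81 ± 0.22, adjusted p = 0.00196), Snap25 (0.62 ± 0.13, adjusted p = 6.9e-05), Sv2a (0.49 ± 0.15, adjusted p = 0.00977) and Syt7 (0.44 ± 0.14, adjusted p = 0.00855). The call of Stx2 was lost without fixed CA1 replicate 1, fixed CA3 replicate 1, fixed DG replicate 4, paraffin CA1 replicate 1, paraffin CA3 replicate 2 or 3 or paraffin DG replicate 1 (adjusted p = 0.0508, 0.0533, 0.0576, 0.0776, 0.0509, 0.0723 and 0.0811). These comparisons share the fixed frozen replicates with the test of fixation, so that their values are set side by side and not compared.

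**Figure D5:**
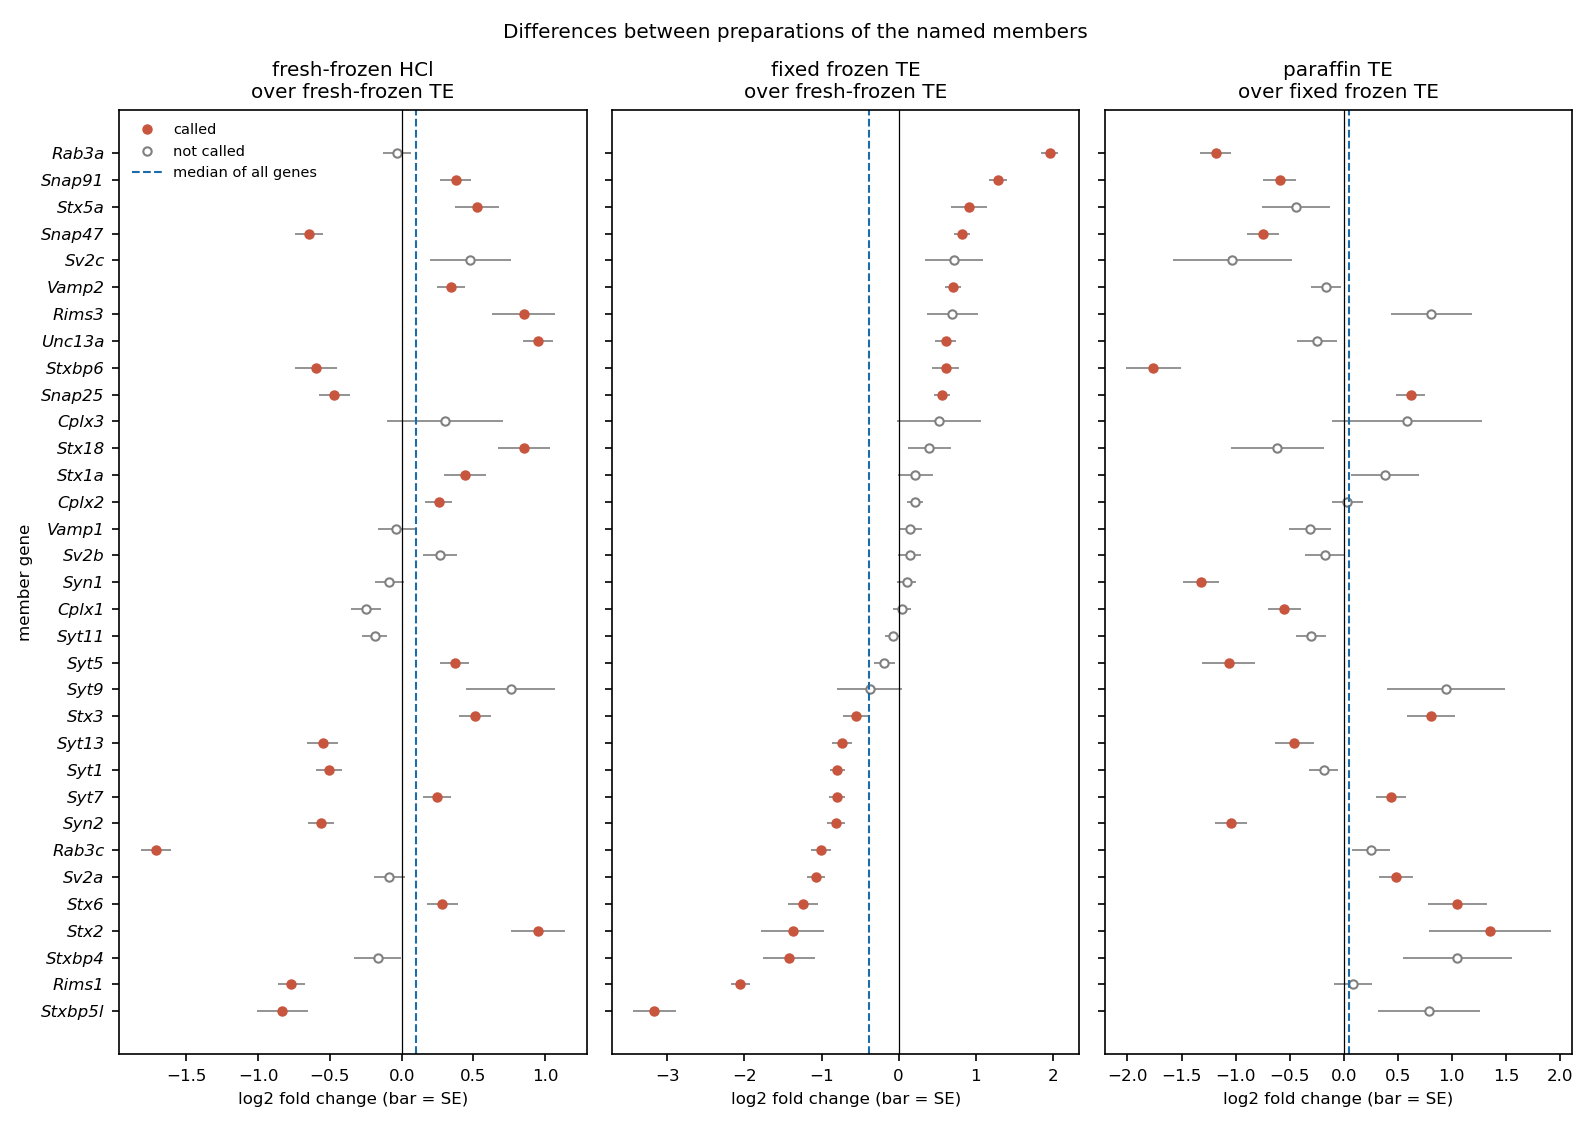
Log2 fold change ± SE (horizontal axis) of 33 named members (rows) in the 3 comparisons of conditions (panels). Filled points passed at an adjusted p under 0.05, and the dashed line is the median of all genes tested. In the fixation panel that line is at -0.39, Stxbp5l is at -3.17 and Rab3a at 1.96.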

How the data were processed

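The authors deposited raw UMI counts per gene for 48 replicates (12 pooled libraries of 4), made by the CEL-seq2-type PIC protocol, which reads the 3′ end of each mRNA, so that levels do not scale with transcript length and isoforms are not told apart. Per the labels, UMIs were extracted with UMI-tools 1.0.0, reads were aligned with HISAT2 2.1.0 and counted with featureCounts 1.6.4, on GRCm38, and the authors used DESeq2 1.20.0. Strand was not part of the stated counting, so reads of overlapping antisense genes cannot be told apart. UMIs had 6 bases (4096 sequences), and no member passed 2500 UMIs in a replicate. A replicate held 35932 to 1111804 UMIs, and no replicates agreed within sampling noise (lowest chi-square per degree of freedom 1.229).

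Groups came from the sample titles. Region pairs were fitted within each condition (8 replicates), conditions over 24 replicates with region as a covariate, and region-by-condition terms by an F test. The fits used edgeR 4.0.16 (quasi-likelihood, TMM, at least 10 UMIs summed in the fit, Benjamini-Hochberg over all genes, R 4.3.3), checked on simulated data. CPM divides by the total of the replicate. Alternatives were DESeq2 1.42.0, its size factors (not for the interactions), no filter, a replicate block, thinning to 35932 UMIs, and each replicate left out. A UMI collision correction was applied to the comparisons of conditions only. Same-numbered replicates correlated in their deviations from group means (every pair over 0.1, a hint from the data, not the labels) between CA1 and DG in TE (r 0.219 to 0.314), CA3 and DG in HCl (0.228 to 0.433) and in TE (0.213 to 0.312), and CA1 and CA3 in TE (0.18 to 0.338). Members named are those called with 1 sign in at least 3 of 4 conditions, up to 4 in each direction of each comparison of conditions (mean of at least 10 UMIs a replicate), the 3 most abundant, those called in an interaction, and the most abundant of each role, with close paralogs. Some genes that this rule or the marker lists take in are not reported here. Syt2, Syt3, Syt4, Syt16, Snap23, Snap29, Stx12 and Stx17 were named after their values were seen. The members and lists were chosen with earlier results of these data known. Promoters came from RefSeq (GRCm38.p6).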

Additional observations from a re-analysis of the deposited data

Results flagged for a closer look

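In 24 of 408 groups of 4 replicates checked, the highest or lowest replicate stood apart from the other 3 by Dixon's 95% criterion, which chance passes in about 1 of 20 groups. Among synaptic members the lowest replicate stood apart for Rab3a (232.1 CPM) and Vamp2 (688.9 CPM) in HCl CA3, Cplx1 in HCl DG (226.1 CPM), Snap91 in fixed frozen DG (320.5 CPM) and Syt13 in fixed frozen CA1 (77.4 CPM). The highest replicate stood apart for Sv2c in HCl DG (42.58 CPM), Vamp1 in paraffin DG (233.4 CPM), Cplx1 in fixed frozen DG (385.3 CPM), Syn2 in TE CA3 (2007 CPM) and Syt5 in paraffin CA3 (334.7 CPM). Cplx3 had a high replicate in TE CA3 (15.01 CPM), fixed frozen CA3 (7.828 CPM), fixed frozen DG (3.256 CPM) and paraffin DG (13.45 CPM). Stxbp4 had one in fixed frozen CA1 (5.529 CPM) and in paraffin CA3 (24.82 CPM).

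Among syntaxins, a high replicate stood apart for Stx6 in TE CA1 (121.4 CPM), Stx2 in TE CA1 (31.06 CPM), Stx5a in TE CA3 (40.74 CPM) and Stx18 in paraffin DG (40.35 CPM). The same was so of Stx6 in TE CA3 at 104.6 CPM, Stx1a in TE CA3 at 53.97 CPM and Stx1a in TE DG at 37.36 CPM. The summed level of the members was low in 1 paraffin CA3 replicate, at 18168 CPM.

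The region differences of 4 members differed between conditions by the edgeR interaction test, with adjusted p = 0.0294 for Cplx2 in HCl against TE, 0.0345 for Syn2 in fixed frozen against TE, and 0.0172 for Rab3c and 0.0252 for Vamp2 in paraffin against TE.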

How the results depend on the processing

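Of 186 calls of named members, 77 held under every alternative that tested them and 137 under every one but thinning. A call whose member fell under the filter in an alternative had no value there and was not counted as lost. That was so after thinning for Cplx3, Sv2c and Syt9 between CA1 and DG in HCl, among others. DESeq2 lost 27, no filter on low counts 12, DESeq2's size factors 5 and the replicate block 1. The UMI collision correction, run only on the comparisons of conditions, lost 0, and its effect on region calls was not tested. Thinning every replicate to 35932 UMIs, which discards most UMIs of the fresh-frozen libraries, lost 97 and turned Rims3 in HCl over TE to -0.0007029. Depth thus limited what could be called. After thinning, the number of members called in HCl, TE, fixed frozen and paraffin sections was 2, 2, 2 and 3 between CA1 and DG, and 2, 2, 7 and 4 between CA3 and DG. Between CA1 and CA3 it was 4, 3 and 7 in HCl, TE and fixed frozen sections. It was 9 for HCl over TE, 22 for fixation (13 higher, 9 lower), 11 for embedding and 0, 0 and 0 for the interactions with HCl, fixed frozen and paraffin.

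DESeq2 called 4 between CA1 and DG in fixed frozen sections and 2 in paraffin, 4 between CA3 and DG in paraffin, and 2, 2 and 4 in the interactions. No filter gave 5 between CA3 and DG in paraffin and 0 in the HCl interaction. The replicate block gave 25 between CA1 and DG in TE, 28 and 25 between CA3 and DG in HCl and TE, 5 between CA1 and CA3 in paraffin, and 10 and 3 in the HCl and fixed frozen interactions. It also gave 12 in place of 8 between CA1 and CA3 in TE. For embedding, DESeq2 split the calls 11 higher and 10 lower. The cause of these differences was not tested. Each replicate left out in turn gave 5 to 9 members between CA1 and DG in fixed frozen sections and 2 to 6 in paraffin, 3 to 11 between CA3 and DG and 3 to 7 between CA1 and CA3 in paraffin, and 0 to 1, 0 to 2 and 1 to 3 in the interactions. All other counts stayed within 1.5 times.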
